A study of Mus musculus with 18 samples.

Results

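Collagen genes other than the basement membrane pair were followed across 18 RNA libraries of mouse embryo cells. Of 24498 genes in the deposited table, 42 have a name of the form Col, a number, the letter a and a number, once Col4a1 and Col4a2 are set aside, and all 42 are accounted for here. The cells came from embryos at embryonic day 7.5 in which both Foxa2 alleles carried tagRFP, a red fluorescent protein, joined to the end of FoxA2 by a flexible linker. FoxA2, a forkhead factor, acts in the endoderm and in the node and its notochord. Homozygous FoxA2-deltaHx-tagRFP embryos (ΔHx) made the fused protein without 10 amino acids of an α-helix that the series describes as critical for activating its targets. Homozygous FoxA2-WT-tagRFP embryos (WT) made it whole, so the reference cells carried the tag too. Each genotype was sorted by red fluorescence into cells brighter than heterozygous cells (High), cells above autofluorescence and up to the heterozygous maximum (Mid) and cells without signal (Neg), with 3 libraries in each of the 6 groups. Mice had a mixed C57Bl6/J and CD-1 background, a sort drew on about 10 embryos, the sex of embryos was not recorded, and extra-embryonic tissue had been taken off before the sort. The labels call the replicates biological but do not tie a number to a litter or a day. A library is named below by its group and replicate number, as in WT Mid 1.

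Collagens are secreted or membrane-bound trimers whose chains wind into a triple helix. Fibrillar collagens (types I, II, III, V, XI, XXIV and XXVII) build the cords of connective tissue, cartilage and the notochord sheath, and fibril-associated collagens (types IX, XIV, XVI, XIX, XX and XXII) sit on or beside them. Type IV and VIII chains form networks, type VI forms beaded filaments, type VII anchors epithelia, types XIII, XVII, XXIII and XXV span the cell membrane, and type XVIII is a basement membrane collagen that carries sugar chains. In the gastrulating embryo the axial mesoderm is an early source of type II collagen, and mesenchyme is the usual source of type I.

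Reads in genes numbered 12302196 to 17194136 a library, over 15649 to 17917 genes, the fewest in ΔHx High 3. The ribosomal RNA gene Rn45s took 23.7% (WT Neg 3) to 44.0% (WT Mid 1) of these reads, so fewer were left for other genes. Its share was 27.9% to 30.1% in ΔHx Neg and 23.7% to 32.1% in WT Neg. In Mid it was 30.3% to 43.0% in ΔHx and 28.6% to 44.0% in WT, and in High 27.9% to 37.5% and 29.0% to 37.9%. Foxa2 itself followed the gates, with 1556 to 2483 normalised reads over the 6 High libraries, 547 to 1229 over the 6 Mid libraries and 20.3 to 62.5 over the 6 Neg libraries. The helix deletion leaves most of the gene in place, so this checks the gate and not the genotype. Summed values of 10 node and notochord markers were 31684 to 33365 in ΔHx High and 26492 to 40740.0 in WT High, against 1795 to 3427 in ΔHx Neg and 1745 to 3433 in WT Neg. WT Mid 1 stood apart from the other Mid libraries: the 11 parietal endoderm markers, which include Col4a1 and Col4a2, summed to 267520.0 there, against 45090.0 in WT Mid 2, 69805 in WT Mid 3 and 19765 to 25631 in ΔHx Mid. Results for the WT Mid gate are therefore given with and without that library where it matters. ΔHx Mid 3 also differed from its group. It had 1229 normalised reads of Foxa2, against 547 in ΔHx Mid 1 and 611 in ΔHx Mid 2. Rn45s took 43.0% of its reads in genes, against 30.3% and 36.2% in those libraries. Definitive endoderm markers were called higher in both FoxA2-positive gates than in Neg (8 of 8 in High and in Mid, in each genotype). Of 10 nascent and paraxial mesoderm markers, 1 was higher and 6 lower in High than in Neg in ΔHx and 1 and 8 in WT, and of 9 tested epiblast and neural markers 3 were higher and 6 lower in each genotype. In sorted pools, fewer cells of a type and less RNA per cell cannot be told apart.

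The promoter windows of 5 members are printed because these genes, picked after their values were seen, differed strongly between gates. Each window holds 250 bases before and 50 after a RefSeq start (GRCm38.p6, 5′ to 3′ along the gene). Capitals mark TATAAA, searched on both strands. Col16a1, Col6a5, Col8a2 and Col11a2 were higher in High than in Neg cells of at least 1 genotype and Col13a1 was lower.
Col16a1, chr4:130047590-130047889, plus strand: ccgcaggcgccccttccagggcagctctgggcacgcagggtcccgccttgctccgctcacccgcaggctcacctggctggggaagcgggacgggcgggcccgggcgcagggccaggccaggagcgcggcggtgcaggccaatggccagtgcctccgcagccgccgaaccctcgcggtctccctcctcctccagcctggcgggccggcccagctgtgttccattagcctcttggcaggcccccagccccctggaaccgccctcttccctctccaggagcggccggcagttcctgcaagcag
Col6a5, chr9:105960594-105960893, minus strand: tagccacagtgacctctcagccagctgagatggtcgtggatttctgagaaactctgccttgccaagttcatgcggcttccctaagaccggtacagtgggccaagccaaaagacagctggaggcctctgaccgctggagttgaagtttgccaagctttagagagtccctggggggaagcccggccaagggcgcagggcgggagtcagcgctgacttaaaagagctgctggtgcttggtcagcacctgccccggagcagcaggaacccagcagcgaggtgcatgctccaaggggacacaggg
Col8a2, chr4:126286544-126286843, plus strand: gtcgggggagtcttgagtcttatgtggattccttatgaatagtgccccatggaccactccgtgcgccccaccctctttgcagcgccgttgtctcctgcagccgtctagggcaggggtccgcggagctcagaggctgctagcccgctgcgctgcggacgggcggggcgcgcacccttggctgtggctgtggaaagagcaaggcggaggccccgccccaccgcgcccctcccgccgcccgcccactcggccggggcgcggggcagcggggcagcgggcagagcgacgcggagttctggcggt
Col11a2, chr17:34038888-34039187, plus strand: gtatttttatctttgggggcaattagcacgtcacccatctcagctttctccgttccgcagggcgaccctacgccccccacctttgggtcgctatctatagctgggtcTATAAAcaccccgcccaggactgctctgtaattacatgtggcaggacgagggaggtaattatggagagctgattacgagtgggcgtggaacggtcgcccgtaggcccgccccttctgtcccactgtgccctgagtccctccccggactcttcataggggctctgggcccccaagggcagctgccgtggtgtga
Col13a1, chr10:61979059-61979358, minus strand: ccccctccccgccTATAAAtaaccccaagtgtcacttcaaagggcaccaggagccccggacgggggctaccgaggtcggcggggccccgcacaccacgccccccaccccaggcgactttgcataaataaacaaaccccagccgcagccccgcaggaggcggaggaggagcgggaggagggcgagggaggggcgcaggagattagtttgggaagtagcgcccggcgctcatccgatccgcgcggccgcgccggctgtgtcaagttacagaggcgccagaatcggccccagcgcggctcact
RefSeq windows matched 33 of the 42 members by symbol, with 36 windows in all. The others are Col1a1, Col2a1, Col4a3, Col5a2, Col9a3, Col12a1, Col14a1, Col22a1 and Col26a1. The forkhead sequence TGTTTAC, on either strand, was in the window of 1 of them, Col6a1, and in 3.65% of all 32851 windows. Its variant TGTTTGC was in 0 of the 36 and in 5.07% of all. TATAAA was in those of Col10a1, Col11a2, Col13a1, Col17a1 and Col3a1, 5 of 36, and in 13.6% of all windows, and the Sox-type sequence AACAAT was in that of Col3a1 and in 10.7% of all. A match is only a run of letters, and its absence says nothing about a factor's binding elsewhere. The GC content was 74.3% in the Col16a1 window, 71.7% for Col8a2, 68.0% for Col13a1, 60.00% for Col6a5 and 59.0% for Col11a2, where the median of all windows was 52.7%.

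Of the 42 members, 32 had 10 or more normalised reads in 3 libraries or more and were tested, and 10 did not. Those 10 were Col10a1, Col12a1, Col15a1, Col28a1, Col4a3, Col4a4, Col5a3, Col6a4, Col6a6 and Col8a1, each with 20 to 75 reads over all 18 libraries. Their highest value in a library was 47.0 normalised reads, for Col6a4 in ΔHx High 3, and 13.6 or less for the other 9. Col4a3 and Col4a4, the type IV chains of the adult glomerulus, were thus near the floor of detection in every gate. The sum of all 42 members ranged from 4369 normalised reads in WT Mid 1 to 7082 in ΔHx Mid 3. Col18a1 made up 23.8% to 25.3% of the sum in ΔHx High and 21.6% to 29.2% in WT High. In ΔHx High 1, ΔHx High 3 and WT High 3 Col2a1 had more reads than Col18a1, though barely in ΔHx High 3 (1414.2 against 1413.4 normalised reads). In Mid Col18a1 made up 49.9% to 56.2% of the sum in ΔHx and 30.5% to 60.6% in WT. In Neg it made up 53.4% to 54.5% in ΔHx and 49.9% to 55.0% in WT. Per kb of annotated exon, the High gate was led by Col18a1, Col2a1, Col9a3 and Col16a1 in that order in both genotypes. In ΔHx High their levels were 197 ± 7.14, 156 ± 5.65, 74.1 ± 7.87 and 44.9 ± 6.85 normalised reads per kb (SD, n = 3). In WT High the levels of Col18a1 and Col2a1, 198 ± 47.2 and 146 ± 50.8 per kb, overlapped between libraries. In Neg the order per kb was Col18a1, Col13a1, Col1a1 and Col9a3 in both genotypes, and in Mid it was Col18a1, Col13a1, Col23a1 and Col9a3.

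The comparison of gates asks which collagens differ with FoxA2 level. Of the 32 tested members, 9 were higher and 7 lower in High than in Neg cells of ΔHx embryos, where 21.5% and 21.1% of all 14711 tested genes were. In WT embryos 8 were higher and 8 lower, against 22.6% and 21.8% of all genes. These shares, 28.1% and 21.9% in ΔHx and 25.0% each in WT, were near the background. Between High and Mid, 10 members were higher and 5 lower in ΔHx (background 13.3% and 12.3%), and 10 and 4 in WT (background 12.1% and 12.4%). The share that was higher in High than in Mid, 31.3% in each genotype, was above the background. Col6a5 and Col8a2 are among these rises in both genotypes. They reached 10 normalised reads only in High libraries and WT Mid 2, so they passed the filter through the gate where they are high. Col3a1 reached 10 only in Neg libraries and passed through that gate. The counts of calls include these genes. Between Mid and Neg, 4 were higher and 5 lower in ΔHx (background 17.9% and 16.5%), and 4 and 9 in WT (background 17.4% and 15.4%). The 3 comparisons of a genotype share libraries and are not independent of each other. The median log2 change of the tested members was 0.57 from Neg to High in ΔHx and 0.43 in WT, beside 0.01 and 0.02 over all genes.

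The genotypes have separate libraries, but the model fitted over all groups gives both the same error for a gene. Their calls are thus not fully independent. They share calls between gates, in shares that among members lay near, above or below those of all genes. From Neg to High both called Col11a2, Col16a1, Col22a1, Col2a1, Col6a5 and Col9a3 higher, 66.7% of the ΔHx list and 75.0% of the WT list (all genes 82.7% and 78.4%). Both called Col13a1, Col18a1, Col1a1, Col26a1, Col4a6 and Col5a2 lower, 85.7% of the ΔHx list and 75.0% of the WT list (all genes 83.0% and 80.4%). Between High and Mid 9 rises (90.0% of each list) and 3 falls (60.0% of the ΔHx list and 75.0% of the WT list) were shared. Over all genes the shared rises were 66.2% of the ΔHx list and 73.1% of the WT list, and the shared falls 60.2% and 59.9%. Between Mid and Neg 1 rise (25.0% of each list) and 5 falls (100% of the ΔHx list and 55.6% of the WT list) were shared. Over all genes these shares were 73.6% and 75.4% for rises and 70.7% and 75.5% for falls. No member was called in opposite directions in any pair of gates. With so few members called, these shares are a description. Counts moved by more than 1.5 times without some libraries. In WT Mid against Neg there were 2 rises without WT Mid 2 or WT Neg 1, 5 falls without WT Mid 1 and 4 without WT Neg 2. In ΔHx Mid against Neg there was 1 rise without ΔHx Mid 2, 2 without ΔHx Mid 3 or ΔHx Neg 1, and there were 3 falls without ΔHx Neg 3. WT High against Mid had 2 falls without WT High 1 or WT Mid 2. Quantile normalisation gave 5 rises in ΔHx High against Neg and 1 in ΔHx Mid against Neg, and DESeq2 gave 7 in WT Mid against Neg.

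**Figure D1:**
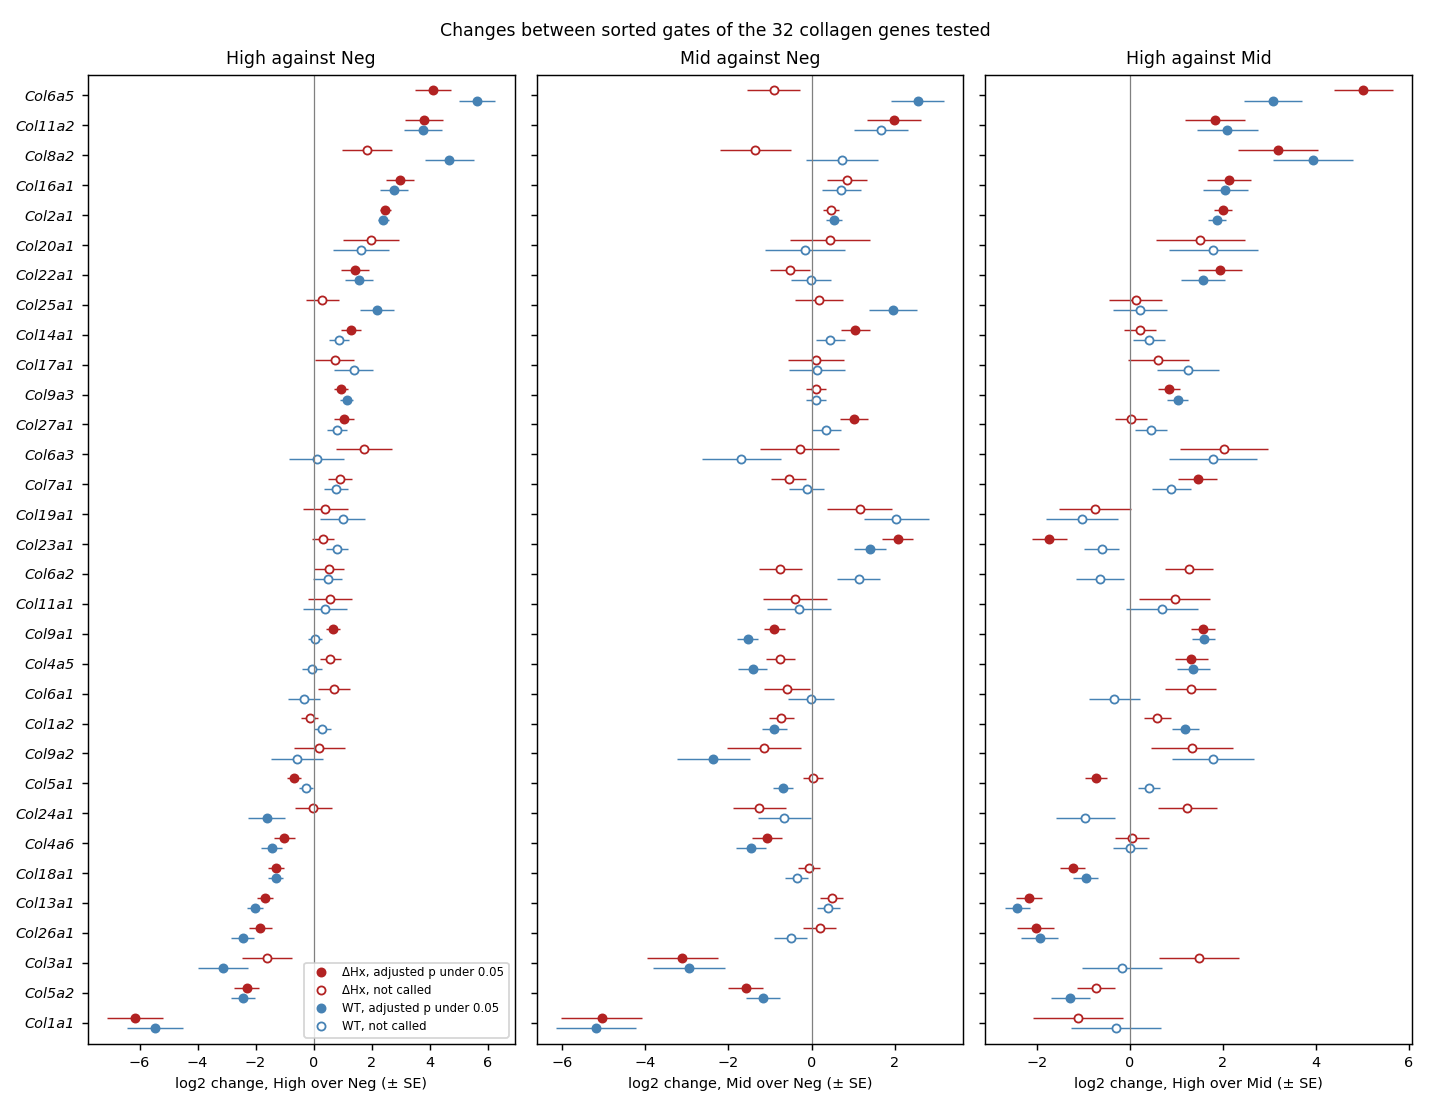
Log2 change (x axis, with SE) of each of the 32 tested collagen genes (y axis) for High against Neg, Mid against Neg and High against Mid cells, in ΔHx (red) and WT (blue), filled where the adjusted p was under 0.05. Col2a1, Col16a1 and Col11a2 lie to the right in High against Neg in both genotypes, and Col1a1, Col5a2, Col26a1 and Col13a1 to the left.

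Of the 6 chains of collagen types II, IX and XI, 3 were called higher from Neg to High in both genotypes: Col2a1, Col9a3 and Col11a2. Col2a1, the chain of type II collagen in the notochord sheath and cartilage, had the lowest adjusted p of the 32 members between High and Neg in both genotypes. Col9a3 and Col11a2 encode partners of that fibril. Col11a1 and Col9a2 were not called between these gates, Col9a1 was called in ΔHx alone, and Col9a1 had its low point in Mid.

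Col2a1 (chr15:97975602-98004695, mm10, minus strand) had 1503, 1411 and 1414 (High), 298, 356 and 436 (Mid) and 279, 216 and 287 (Neg) in ΔHx cells, in normalised reads. The WT libraries had 936, 1255 and 1861 (High), 359, 338 and 367 (Mid) and 220.5, 224 and 297 (Neg). All High libraries lay above all Mid and Neg libraries. For Col2a1 the change from Neg to High was log2 2.47, SE 0.20, adjusted p = 1.02e-08 in ΔHx and log2 2.40, SE 0.20, adjusted p = 1.17e-08 in WT. From Mid to High it was log2 2.00, SE 0.20, adjusted p = 6.92e-07 in ΔHx and log2 1.87, SE 0.20, adjusted p = 1.71e-06 in WT. Between Mid and Neg it was small, with log2 0.47 in ΔHx (adjusted p = 0.0727) and 0.53 in WT (adjusted p = 0.0450). Sox9, a transcription factor that activates type II collagen in cartilage, moved with it: it averaged 3476 ± 283 normalised reads in ΔHx High and 3273 ± 749.5 in WT High, against 269.9 ± 37.8 in ΔHx Neg and 225 ± 29.1 in WT Neg (SD, n = 3 each). Its log2 change from Neg to High was 3.69 in ΔHx (adjusted p = 8.81e-12) and 3.84 in WT (adjusted p = 3.34e-12). Its partners Sox5 and Sox6 stayed at means of 10.8 to 58.9 normalised reads, and of the 2 only Sox6 passed the test, in WT High against Neg (log2 2.46, SE 0.76, adjusted p = 0.0124), a call that ended without WT Neg 1 (adjusted p = 0.0855).

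Col11a2, a chain of type XI collagen that lies inside type II fibrils, had 105, 101 and 129 (High), 14.9, 45.8 and 41.1 (Mid) and 5.58, 2.80 and 19.6 (Neg) in ΔHx cells. In WT cells it had 111, 130.2 and 170.2 (High), 56.2, 29.6 and 17.4 (Mid) and 2.46, 20.3 and 12.7 (Neg). High libraries lay above all others, while Mid and Neg overlapped. The change from Neg to High was log2 3.80, SE 0.65, adjusted p = 1.05e-04 in ΔHx and log2 3.76, SE 0.65, adjusted p = 1.10e-04 in WT. For Col11a2 the change from Mid to High was log2 1.83, SE 0.65, adjusted p = 0.0453 in ΔHx and log2 2.10, SE 0.65, adjusted p = 0.0234 in WT. Col11a1, the other dedicated chain of type XI, ranged over 4.56 to 125 normalised reads and had adjusted p of 0.583 in ΔHx and 0.713 in WT from Neg to High. Per kb of exon, Col11a1 stood at 0.148 to 0.519 times Col11a2 in ΔHx High and 0.146 to 0.180 times in WT High, against 1.05 to 8.09 times in ΔHx Neg and 1.08 to 5.66 times in WT Neg. The ratio of the chains thus changed sides of 1 between the gates.

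Type IX collagen decorates type II fibrils and is made of an α1, an α2 and an α3 chain. Col9a3 had 256, 284 and 317 (High), 125, 187 and 171 (Mid) and 118, 159.6 and 168 (Neg) in ΔHx cells. In WT cells Col9a3 had 277, 282 and 434 (High), 134, 146 and 203 (Mid) and 168, 162 and 117 (Neg). It was highest in the High gate, with log2 0.95, SE 0.23, adjusted p = 0.00261 in ΔHx and log2 1.13, SE 0.23, adjusted p = 5.38e-04 in WT from Neg to High. Col9a1 had 199, 223 and 233 (High), 62.3, 69.2 and 88.9 (Mid) and 154, 127 and 130.1 (Neg) in ΔHx cells. In WT cells Col9a1 had 153, 102 and 228 (High), 50.7, 56.4 and 44.5 (Mid) and 175, 133 and 139 (Neg). All Mid libraries of Col9a1 lay below all High and Neg libraries. It was lower in Mid than in Neg, with log2 -0.90, SE 0.25, adjusted p = 0.00983 in ΔHx and log2 -1.54, SE 0.25, adjusted p = 1.26e-04 in WT. Col9a1 rose from Mid to High, by log2 1.57, SE 0.25, adjusted p = 1.37e-04 in ΔHx and log2 1.58, SE 0.25, adjusted p = 1.27e-04 in WT. From Neg to High it changed by log2 0.67 in ΔHx (adjusted p = 0.0386) and 0.05 in WT (adjusted p = 0.894). The remaining chain, Col9a2, was scarce in every gate, at 0 to 39.9 normalised reads, and per kb it stood at 0.211 times Col9a3 or less. It was called lower in Mid than in Neg in WT (log2 -2.36, SE 0.88, adjusted p = 0.0473). Col27a1, a fibrillar collagen of cartilage, had 106, 102 and 189.7 (High), 100.5, 143 and 135 (Mid) and 45.8, 70.9 and 70.2 (Neg) in ΔHx cells. In WT cells Col27a1 had 116, 257 and 109.9 (High), 169.9, 87.9 and 85.4 (Mid) and 92.4, 94.3 and 69.7 (Neg). It was called higher in ΔHx High than in ΔHx Neg (log2 1.05, SE 0.35, adjusted p = 0.0199), with the WT change at log2 0.80, SE 0.35, adjusted p = 0.0670. In ΔHx it was also called higher in Mid than in Neg (log2 1.02, SE 0.35, adjusted p = 0.0289). Exons of Tcfl5 overlap Col9a3 on the opposite strand, and the SMART-Seq2 method does not record strand. Whether reads in that overlap were counted for Col9a3 or set aside as ambiguous was not tested. Col2a1 lost its call in WT Mid against Neg without WT Mid 1, 2 or 3 or WT Neg 1 or 2 or under no filter, quantile normalisation or edgeR (adjusted p up to 0.150). Col9a1 lost its call in ΔHx High against Neg without ΔHx High 1, 2 or 3 or ΔHx Neg 2 or 3 or under no filter or quantile normalisation (adjusted p up to 0.281). Col9a2 lost its call in WT Mid against Neg without WT Mid 1 or 2 or WT Neg 1, 2 or 3 or under a pseudocount of 5, no filter, equal totals, the replicate block, edgeR or DESeq2 (adjusted p up to 0.218). Col9a3 lost its call in ΔHx High against Mid without ΔHx Mid 1 (adjusted p up to 0.0613). Col11a2 lost its calls in WT High against Mid without WT High 2 or 3 or WT Mid 2 or 3 (adjusted p up to 0.0939) and in ΔHx Mid against Neg without ΔHx Mid 2 or 3 or ΔHx Neg 1 or 2 or under quantile normalisation (adjusted p up to 0.132). For Col11a2 the call also ended in ΔHx High against Mid without ΔHx High 1, 2 or 3 or ΔHx Mid 1 or 3 or under a pseudocount of 0.5, no filter or quantile normalisation (adjusted p up to 0.179). Col27a1 lost its calls in ΔHx High against Neg without ΔHx High 3 or ΔHx Neg 1 or under quantile normalisation (adjusted p up to 0.165) and in ΔHx Mid against Neg without ΔHx Mid 2 or 3 or ΔHx Neg 1 or under quantile normalisation (adjusted p up to 0.128). The node and notochord markers rose in the same libraries, 10 of 10 being called from Neg to High in each genotype, and their part in these values was not tested.

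**Figure D2:**
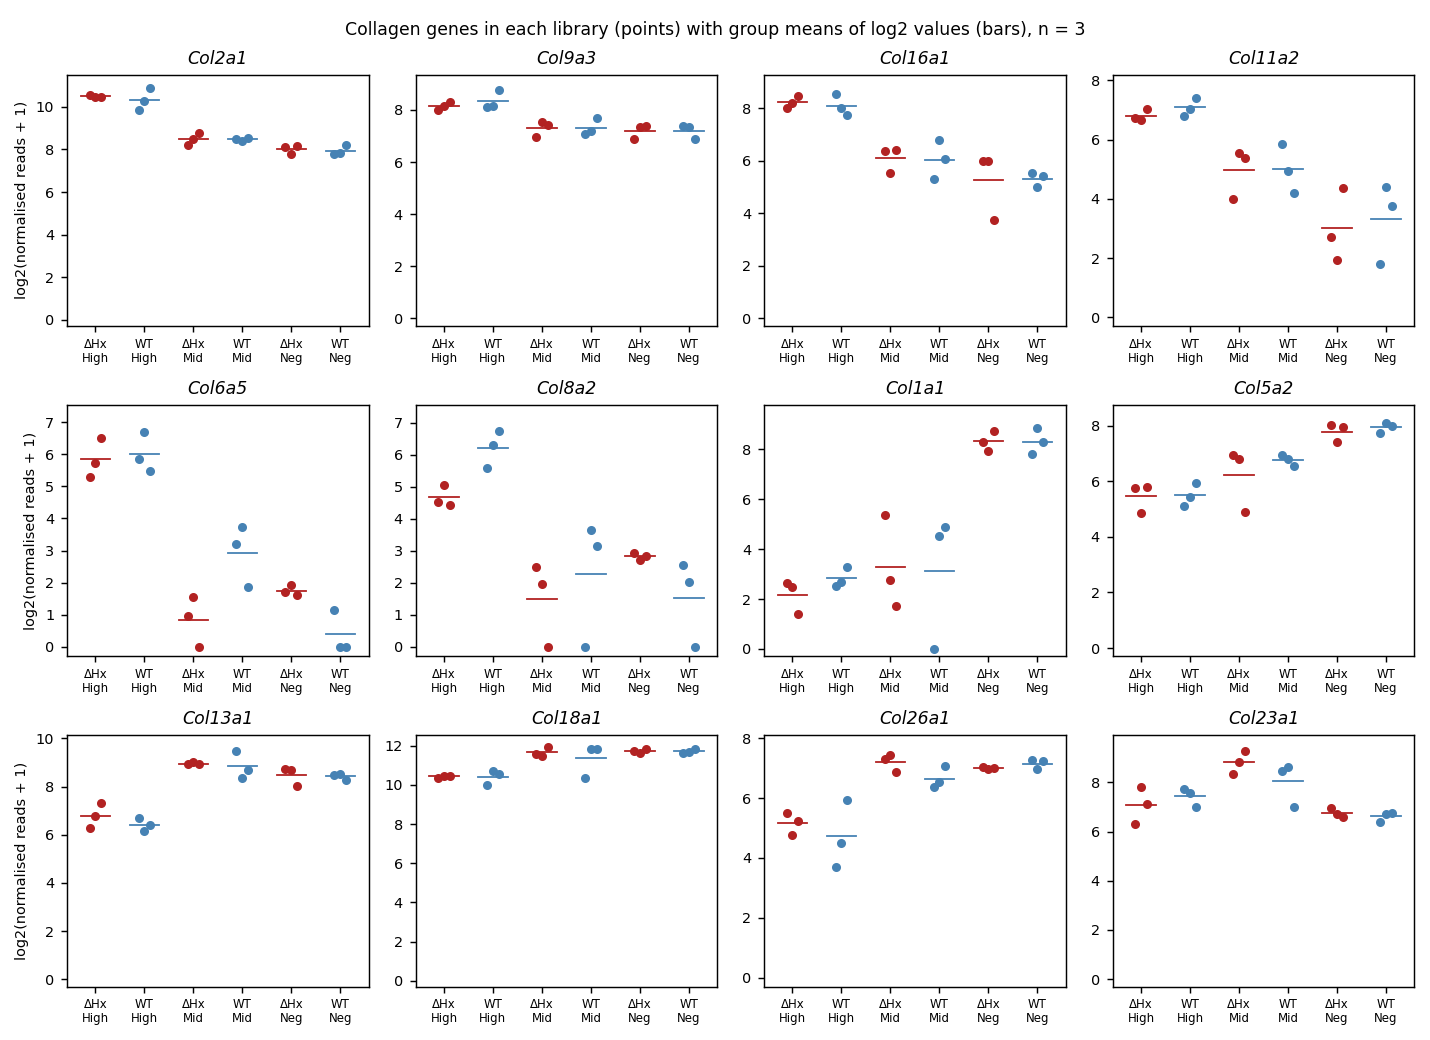
Log2 of normalised reads plus 1 (y axis) of 12 collagen genes in each of the 18 libraries (points, ΔHx red and WT blue, by gate on the x axis), with bars at group means of the log2 values (n = 3). Col2a1 and Col11a2 stand highest in the High gate, Col1a1 and Col5a2 in the Neg gate, and Col23a1 in the ΔHx Mid gate.

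Among the other fibril-associated collagens, Col16a1 and Col22a1 were called higher in High than in Mid and Neg in both genotypes. Col16a1, a collagen found beside several fibril types, had 260.4, 296 and 352 (High), 81.9, 45.8 and 83.2 (Mid) and 63.6, 63.5 and 12.4 (Neg) in ΔHx cells. The WT values were 374, 255 and 214 (High), 38.4, 109 and 65.4 (Mid) and 45.6, 31.4 and 41.7 (Neg). Every High library exceeded every Mid and Neg library by at least 1.96-fold. For Col16a1 the change from Neg to High was log2 2.98, SE 0.48, adjusted p = 5.55e-05 in ΔHx and log2 2.77, SE 0.48, adjusted p = 1.08e-04 in WT, and from Mid to High log2 2.13, SE 0.48, adjusted p = 0.00271 and log2 2.05, SE 0.48, adjusted p = 0.00356. Col22a1, a collagen of tissue junctions such as that of muscle and tendon, had 82.4, 116 and 179.8 (High), 40.0, 36.1 and 19.4 (Mid) and 53.6, 30.8 and 51.6 (Neg) in ΔHx cells. In WT cells Col22a1 had 74.3, 64.6 and 80.7 (High), 34.2, 24.8 and 15.7 (Mid) and 9.85, 45.6 and 29.9 (Neg). Its High libraries lay above all others, with log2 1.42, SE 0.47, adjusted p = 0.0201 in ΔHx and log2 1.56, SE 0.47, adjusted p = 0.0112 in WT from Neg to High and log2 1.94, SE 0.47, adjusted p = 0.00484 in ΔHx and log2 1.58, SE 0.47, adjusted p = 0.0189 in WT from Mid to High. Col14a1, a collagen of type I fibrils, averaged 78.5 ± 4.96 normalised reads in ΔHx High, 68.8 ± 18.2 in ΔHx Mid and 33.6 ± 12.2 in ΔHx Neg, and 85.9 ± 10.0, 68.2 ± 26.9 and 47.2 ± 7.90 in those gates of WT (SD, n = 3 each). It was called from Neg to High in ΔHx (log2 1.27, SE 0.35, adjusted p = 0.00600), and in WT the change was log2 0.86, SE 0.35, adjusted p = 0.0512. From Neg to Mid it was called in ΔHx (log2 1.05, SE 0.35, adjusted p = 0.0248). Col19a1 and Col20a1 were tested but not called in any gate comparison, with values up to 31.9 and 27.2 normalised reads. An annotated gene on the opposite strand overlaps exons of Col22a1. Col22a1 lost its calls in WT High against Neg without WT Neg 1 or under quantile normalisation (adjusted p up to 0.0883, log2 0.96 without WT Neg 1) and in WT High against Mid without WT High 1 or 3 or WT Mid 3 (adjusted p up to 0.0793). For Col22a1 the call also ended in ΔHx High against Neg without ΔHx High 3 or ΔHx Neg 2 or under quantile normalisation (adjusted p up to 0.104). Col14a1 lost its calls in ΔHx High against Neg under quantile normalisation (adjusted p up to 0.0579) and in ΔHx Mid against Neg without ΔHx Mid 1 or 2 or ΔHx Neg 3 or under quantile normalisation (adjusted p up to 0.143).

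Beaded and network collagens split chain by chain. Col6a5 and Col8a2 were low outside the High gate, reaching 12.4 and 11.5 normalised reads there, though Col8a2 was not called from Neg to High in ΔHx. Col4a5 was low in Mid, and Col4a6 was high in Neg. Col6a1, Col6a2 and Col6a3, the standard chains of type VI collagen, were not called between any gates. Col6a5 and Col8a2 had group means under 100 normalised reads and are given in every library because their contrasts stood out once their values were seen.

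Col6a5, a chain of type VI collagen that can stand in for the α3 chain, had 38.6, 52.5 and 90.7 (High), 0.930, 1.95 and 0 (Mid) and 2.23, 2.80 and 2.06 (Neg) in ΔHx cells, in normalised reads. In WT cells it had 56.3, 104 and 43.4 (High), 8.22, 12.4 and 2.62 (Mid) and 1.23, 0 and 0 (Neg). The lowest High library lay above the highest Mid or Neg library in both genotypes. For Col6a5 the change from Neg to High was log2 4.11, SE 0.63, adjusted p = 3.30e-05 in ΔHx and log2 5.62, SE 0.63, adjusted p = 6.94e-07 in WT. In WT this was 210 reads against 1, a ratio of 199 with an exact 95% interval of 35.3 to 7901 that covers counting error only. From Mid to High in ΔHx it was 212 reads against 3, a ratio of 60.9 (20.5 to 297). Between Mid and Neg it was called in WT (log2 2.55, SE 0.63, adjusted p = 0.00425), with 22 reads against 1, a ratio of 21.8 (3.53 to 901). Its neighbours on chromosome 9, Col6a4 and Col6a6, lie 28.8 and 27.9 kb away on the same strand and were among the 10 untested genes.

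Col8a2, a short-chain collagen of the hexagonal networks under corneal endothelium, had 21.9, 32.6 and 20.6 (High), 4.65, 2.93 and 0 (Mid) and 6.70, 5.60 and 6.19 (Neg) in ΔHx cells. In WT cells Col8a2 had 46.8, 78.3 and 105 (High), 0, 11.5 and 7.85 (Mid) and 4.93, 3.04 and 0 (Neg). High libraries were again above all others. For Col8a2 the change from Mid to High was log2 3.18, SE 0.86, adjusted p = 0.00985 in ΔHx and log2 3.95, SE 0.86, adjusted p = 0.00210 in WT. From Neg to High it was called in WT (log2 4.68, SE 0.86, adjusted p = 1.98e-04) and not in ΔHx (log2 1.84, SE 0.86, adjusted p = 0.0941), and the difference of these changes had log2 -2.84, SE 1.22 and adjusted p = 0.998. Its partner Col8a1 reached at most 13.6 normalised reads and was not tested. Col7a1, which forms the anchoring fibrils of skin, averaged 93.1 ± 30.3 normalised reads in ΔHx High and 34.8 ± 15.2 in ΔHx Mid, a called change (log2 1.46, SE 0.42, adjusted p = 0.0148), and 94.4 ± 43.8 and 48.6 ± 14.5 in WT (log2 0.89, SE 0.42, adjusted p = 0.137; SD, n = 3 each).

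Col4a5 and Col4a6 encode type IV chains outside the basement membrane pair and start head to head on the X chromosome with 1308 bases between the annotated genes, yet their gate patterns differed. Col4a5 had 273, 231 and 332 (High), 108, 67.3 and 180.2 (Mid) and 183, 148 and 231 (Neg) in ΔHx cells. In WT cells Col4a5 had 281, 217 and 228 (High), 47.9, 107 and 155 (Mid) and 224, 237 and 289.9 (Neg). High lay above Mid in every library, with log2 1.32, SE 0.35, adjusted p = 0.00856 in ΔHx and log2 1.36, SE 0.35, adjusted p = 0.00710 in WT, the WT change being log2 0.89 (adjusted p = 0.0473) without WT Mid 1. In WT it was also lower in Mid than in Neg (log2 -1.41, SE 0.35, adjusted p = 0.00425). Col4a6 had 49.98, 74.3 and 60.2 (High), 46.5, 51.7 and 83.2 (Mid) and 87.1, 105 and 205 (Neg) in ΔHx cells. In WT cells Col4a6 had 43.2, 40.0 and 87.7 (High), 38.4, 56.4 and 69.7 (Mid) and 142, 126 and 180.3 (Neg). It was lower in High than in Neg, with log2 -1.01, SE 0.36, adjusted p = 0.0307 in ΔHx and log2 -1.45, SE 0.36, adjusted p = 0.00313 in WT, and lower in Mid than in Neg, with log2 -1.07, SE 0.36, adjusted p = 0.0295 and log2 -1.45, SE 0.36, adjusted p = 0.00471. Per kb of exon Col4a5 stood at 3.69 to 6.54 times Col4a6 in ΔHx High and 3.08 to 7.71 times in WT High, against 1.34 to 2.495 times in ΔHx Neg and 1.88 to 2.24 times in WT Neg. The other paralogous pair, Col4a3 and Col4a4, whose annotated genes are 71 bases apart, was barely read.

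Type VI collagen is usually built from α1, α2 and α3 chains. Col6a2 had 71.0, 73.4 and 40.4 (High), 23.3, 16.6 and 35.4 (Mid) and 45.8, 35.5 and 42.3 (Neg) in ΔHx cells. In WT cells Col6a2 had 37.2, 71.9 and 52.3 (High), 249, 35.3 and 61.9 (Mid) and 41.9, 28.4 and 42.6 (Neg). Its highest value, 249 normalised reads, was in WT Mid 1, where the parietal endoderm markers were also highest. Col6a1 behaved alike there, at 97.3 normalised reads against 21.0 and 28.8 in the other WT Mid libraries. Elsewhere Col6a1 ranged from 9.12 to 66.0, and Col6a3 reached at most 24.6. Col8a2 lost its call in ΔHx High against Mid without ΔHx Mid 3 (adjusted p up to 0.0634). Col7a1 lost its call in ΔHx High against Mid without ΔHx High 3 or ΔHx Mid 1 (adjusted p up to 0.0867). Col4a5 lost its call in ΔHx High against Mid without ΔHx Mid 2 (adjusted p up to 0.0615). Col4a6 lost its calls in ΔHx High against Neg without ΔHx High 1 or 3 or ΔHx Neg 3 or under equal totals (adjusted p up to 0.195, log2 -0.65 without ΔHx Neg 3) and in ΔHx Mid against Neg without ΔHx Mid 1 or 2 or ΔHx Neg 3 (adjusted p up to 0.179, log2 -0.70 without ΔHx Neg 3). The size moved by over 1.5 times for Col6a5 in WT High against Neg (log2 3.67 with a pseudocount of 5), Col6a5 in WT Mid against Neg (log2 1.16 with a pseudocount of 5), Col6a5 in WT Mid against Neg (log2 4.04 by edgeR), Col6a5 in WT Mid against Neg (log2 4.36 by DESeq2) and Col8a2 in ΔHx High against Mid (log2 2.03 with a pseudocount of 5).

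**Figure D3:**
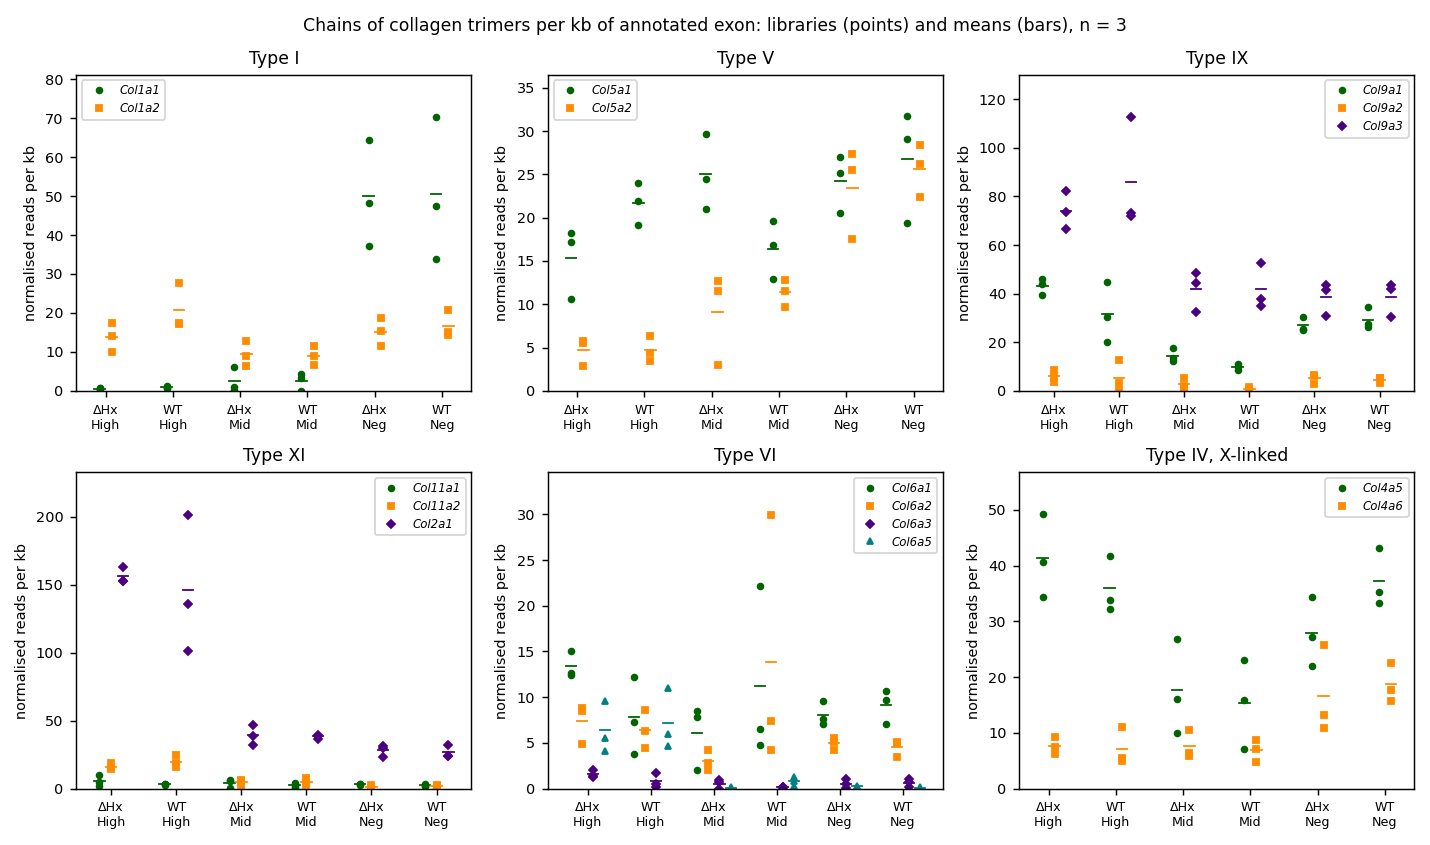
Normalised reads per kb of annotated exon (y axis) of chains of collagen types I, V, IX, XI (with Col2a1), VI and IV in each library (points), by genotype and gate (x axis), with bars at means of n = 3. Col1a1 stands above Col1a2 in the Neg gate and close to 0 in the High gate of both genotypes, and Col4a5 stands above Col4a6 in every group.

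Col1a1 and Col5a2 were called lower in High than in Neg in both genotypes. Col1a1, the α1 chain of type I collagen, was the member with the largest fall from Neg to High. The scarce Col3a1 was called lower in WT. The partner chain Col1a2 was not called between High and Neg, and Col5a1 was called lower in ΔHx.

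Col1a1 (chr11:94936224-94953042, plus strand) had 5.26, 4.53 and 1.65 (High), 40.0, 5.85 and 2.28 (Mid) and 316, 244 and 422 (Neg) in ΔHx cells, in normalised reads. WT cells had 4.80, 5.46 and 8.86 (High), 0, 22.0 and 28.8 (Mid) and 223, 461 and 311 (Neg). The highest High or Mid library held 40.0, against 223 in the lowest Neg library, and WT Mid 1 held 0 reads of it. For Col1a1 the change from Neg to High was log2 -6.15, SE 0.97, adjusted p = 4.22e-05 in ΔHx and log2 -5.47, SE 0.97, adjusted p = 1.31e-04 in WT, and from Neg to Mid log2 -5.04, SE 0.97, adjusted p = 5.51e-04 and log2 -5.18, SE 0.97, adjusted p = 4.24e-04. Col1a2 (α2 of type I) had 175, 217 and 125 (High), 113, 78.0 and 158 (Mid) and 189.8, 144 and 233 (Neg) in ΔHx cells. In WT cells Col1a2 had 345, 215 and 218 (High), 83.6, 111 and 144 (Mid) and 188, 259 and 178 (Neg). High and Neg overlapped, with log2 -0.14 in ΔHx (adjusted p = 0.732) and 0.30 in WT (adjusted p = 0.430). In WT it was lower in Mid than in Neg (log2 -0.89, SE 0.29, adjusted p = 0.0239) and higher in High than in Mid (log2 1.19, SE 0.29, adjusted p = 0.00502). The usual type I trimer joins a pair of α1 chains to an α2 chain. Per kb of exon, Col1a1 stood at 0.0249 to 0.0571 times Col1a2 in ΔHx High and 0.0263 to 0.0770 times in WT High, against 3.15 to 3.43 times in ΔHx Neg and 2.24 to 3.38 times in WT Neg. The size of these ratios depends on the exon lengths, 6.563 kb for Col1a1 and 12.426 kb for Col1a2, which merge all annotated transcripts. Without division by length, the Neg means of Col1a1 and Col1a2 were 328 and 189 normalised reads in ΔHx and 332 and 208 in WT.

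Col5a2, a chain of type V collagen, which starts type I fibrils, had 53.5, 28.1 and 55.3 (High), 122, 111 and 28.5 (Mid) and 262, 168 and 245 (Neg) in ΔHx cells. The values in WT cells were 33.6, 41.9 and 61.2 (High), 123, 111 and 93.3 (Mid) and 214, 273 and 251 (Neg). High and Mid libraries lay below all Neg libraries, and the Mid libraries lay above all High libraries save ΔHx Mid 3. For Col5a2 the change from Neg to High was log2 -2.31, SE 0.41, adjusted p = 1.66e-04 in ΔHx and log2 -2.44, SE 0.41, adjusted p = 8.92e-05 in WT, and from Neg to Mid log2 -1.58, SE 0.41, adjusted p = 0.00636 and log2 -1.17, SE 0.41, adjusted p = 0.0368. Without ΔHx Mid 3 the ΔHx change from Neg to Mid was log2 -0.92 (adjusted p = 0.0398). From Mid to High it was called in WT (log2 -1.28, SE 0.41, adjusted p = 0.0296) and not in ΔHx (log2 -0.73, adjusted p = 0.213). Col5a1 had 146, 155 and 89.9 (High), 252, 178 and 208 (Mid) and 229, 174 and 214 (Neg) in ΔHx cells. In WT cells Col5a1 had 204, 163 and 186 (High), 109.6, 166 and 143 (Mid) and 165, 269.7 and 247 (Neg). The ΔHx High libraries of Col5a1 lay below all ΔHx Mid and Neg libraries, which overlapped each other, and in WT all gates overlapped. Its change from Neg to High was log2 -0.68 in ΔHx (adjusted p = 0.0272) and -0.28 in WT (adjusted p = 0.372). It was lower in High than in Mid in ΔHx (log2 -0.73, SE 0.24, adjusted p = 0.0316) and lower in Mid than in Neg in WT (log2 -0.69, SE 0.24, adjusted p = 0.0334). Annotated genes on the opposite strand overlap exons of Col5a1. Col3a1, the type III collagen of elastic tissues, averaged 3.21 ± 1.86 normalised reads in ΔHx High, 0.620 ± 1.07 in ΔHx Mid and 17.1 ± 16.0 in ΔHx Neg, and 1.60 ± 0.346, 2.64 ± 2.29 and 24.1 ± 13.8 in those gates of WT (SD, n = 3 each). From Neg to Mid it fell in both genotypes (log2 -3.10, SE 0.86, adjusted p = 0.00919 in ΔHx and log2 -2.95, SE 0.86, adjusted p = 0.0127 in WT). In ΔHx this was 2 reads in Mid against 51 in Neg, a ratio of 25.9 of Neg over Mid (95% interval 6.80 to 219). From Neg to High it was called in WT (log2 -3.12, SE 0.86, adjusted p = 0.00616), and the ΔHx change was log2 -1.62 (adjusted p = 0.140). Col3a1 and Col5a2 are neighbours on chromosome 1, tail to tail with 24.6 kb between them. Col24a1, a minor fibrillar collagen, averaged 10.7 ± 7.27 normalised reads in WT High and 28.8 ± 5.48 in WT Neg (SD, n = 3 each; log2 -1.61, SE 0.64, adjusted p = 0.0463). In ΔHx it averaged 22.5 ± 2.67 in High and 22.9 ± 4.45 in Neg (log2 -0.02, SE 0.64, adjusted p = 0.986), and the difference between genotypes had adjusted p = 0.998.

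Markers of other cells moved beside these chains. The 10 lateral and extra-embryonic mesoderm markers summed to 2394 to 2636 in ΔHx High and 2209 to 2310.0 in WT High, against 7722 to 8003 in ΔHx Neg and 7249.8 to 8776 in WT Neg, with 8 of 10 called lower from Neg to High in each genotype. The 10 blood and endothelial markers summed to 303 to 579 and 365 to 463 in ΔHx and WT High, against 2120.0 to 2992 and 1554 to 3134 in ΔHx and WT Neg, with 8 of 10 lower in each, and the globin Hba-x had 0 reads in both High groups. Their part in the fall of Col1a1, Col3a1 and Col5a2 was not tested. Col1a2 lost its call in WT Mid against Neg without WT Mid 1 or 2 or WT Neg 2 (adjusted p up to 0.113). Col3a1 lost its calls in WT Mid against Neg without WT Mid 3 or WT Neg 2 (adjusted p up to 0.0672) and in ΔHx Mid against Neg without ΔHx Neg 3 (adjusted p up to 0.0674). Col5a1 lost its calls in WT Mid against Neg without WT Mid 1 or WT Neg 2 or 3 or under a fit of the compared groups alone (adjusted p up to 0.144) and in ΔHx High against Neg without ΔHx High 3 or ΔHx Neg 1 or 3 or under equal totals (adjusted p up to 0.158, log2 -0.44 without ΔHx High 3). For Col5a1 the call also ended in ΔHx High against Mid without ΔHx High 3 or ΔHx Mid 1 or 3 or under a fit of the compared groups alone (adjusted p up to 0.169, log2 -0.48 without ΔHx High 3). Col5a2 lost its calls in WT Mid against Neg without WT Mid 1, 2 or 3 or WT Neg 1, 2 or 3 or under no filter (adjusted p up to 0.105) and in WT High against Mid without WT High 1 or 2 or WT Mid 1 or 2 (adjusted p up to 0.117). Col24a1 lost its call in WT High against Neg without WT High 3 or WT Neg 1, 2 or 3 or under no filter, equal totals, edgeR or DESeq2 (adjusted p up to 0.256, log2 -0.91 without WT High 3). The size moved by over 1.5 times for Col3a1 in WT High against Neg (log2 -2.03 with a pseudocount of 5), Col3a1 in WT Mid against Neg (log2 -1.86 with a pseudocount of 5), Col3a1 in ΔHx Mid against Neg (log2 -1.68 with a pseudocount of 5) and Col3a1 in ΔHx Mid against Neg (log2 -4.70 by DESeq2).

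Membrane-spanning and basement membrane members had patterns of their own. Col13a1, Col18a1 and Col26a1 were low in High and were not called between Mid and Neg. Col23a1 was raised in the Mid gate. Col13a1, a transmembrane collagen of cell adhesion sites and the neuromuscular junction, had 76.3, 109.6 and 158 (High), 488, 518 and 485 (Mid) and 419.7, 413 and 258 (Neg) in ΔHx cells. The WT libraries read 103, 70.1 and 84.2 (High), 714, 329.5 and 407 (Mid) and 358, 371 and 311 (Neg). High libraries lay below all others. Its changes were log2 -1.69, SE 0.27, adjusted p = 5.68e-05 from Neg to High in ΔHx and log2 -2.02, SE 0.27, adjusted p = 6.86e-06 in WT, and log2 -2.17, SE 0.27, adjusted p = 1.01e-05 from Mid to High in ΔHx and log2 -2.42, SE 0.27, adjusted p = 3.24e-06 in WT. Col26a1, a small collagen of the Emu family, had 44.7, 26.3 and 36.3 (High), 155, 171 and 116 (Mid) and 132, 124 and 126 (Neg) in ΔHx cells. In WT cells Col26a1 had 11.99, 21.8 and 60.3 (High), 80.8, 91.7 and 133 (Mid) and 154, 124 and 149 (Neg). High was again lowest, with log2 -1.83, SE 0.40, adjusted p = 9.39e-04 from Neg to High in ΔHx and log2 -2.44, SE 0.40, adjusted p = 5.63e-05 in WT, and log2 -2.03, SE 0.40, adjusted p = 8.25e-04 in ΔHx and log2 -1.94, SE 0.40, adjusted p = 0.00125 in WT from Mid to High.

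Col18a1, the basement membrane collagen whose tail is released as endostatin, had 1328, 1416 and 1413 (High), 3046, 2823 and 3979.7 (Mid) and 3383, 3132 and 3693 (Neg) in ΔHx cells. In WT cells it had 1017, 1656 and 1489 (High), 1333, 3683 and 3689 (Mid) and 3122, 3317 and 3714 (Neg). High was lower than Neg in every library, with log2 -1.29, SE 0.27, adjusted p = 6.07e-04 in ΔHx and log2 -1.31, SE 0.27, adjusted p = 5.01e-04 in WT. The Mid libraries held 2823 or more, save WT Mid 1, which at 1333 lay within the range of High. The change from Mid to High in WT was log2 -0.95 (adjusted p = 0.0124) with that library and -1.44 (adjusted p = 4.41e-06) without it, and in ΔHx it was -1.23 (adjusted p = 0.00198). WT Mid 1 combined the highest Col4a1 and Col4a2, 68389 and 32600 normalised reads, with the lowest Col18a1 and Col4a5 of its gate. Col23a1, another transmembrane collagen, had 78.9, 225 and 136 (High), 326, 449 and 619 (Mid) and 122, 103 and 96.0 (Neg) in ΔHx cells. In WT cells Col23a1 had 209.8, 188 and 128 (High), 353, 392 and 128 (Mid) and 83.8, 103 and 108 (Neg). ΔHx Mid libraries lay above all other ΔHx libraries, whereas WT Mid 3 lay within the range of WT High. From Neg to Mid it rose in both genotypes, by log2 2.07, SE 0.38, adjusted p = 3.68e-04 in ΔHx and log2 1.41, SE 0.38, adjusted p = 0.00752 in WT. From Mid to High it fell in ΔHx (log2 -1.73, SE 0.38, adjusted p = 0.00213), with the WT change at log2 -0.60, SE 0.38, adjusted p = 0.278 and the difference between genotypes at adjusted p = 0.811. Visceral endoderm markers were highest in Mid too, 10 markers summing to 41706 to 47140.0 in ΔHx Mid and 37747 to 46277 in WT Mid, against 835 to 2161 in ΔHx Neg and 1463 to 1627 in WT Neg, and 10 of 10 were called from Neg to Mid in each genotype. Their part in the Col23a1 values was not tested. Col25a1, a collagen best known from amyloid plaques, was called in WT High and Mid against Neg (log2 2.18, adjusted p = 0.00453, and log2 1.96, adjusted p = 0.0133) on 51 and 40 reads against 8. In ΔHx it was not called, with 39 reads in High and 32 in Mid against 26 in Neg (adjusted p = 0.707 and 0.840). Col18a1 lost its call in WT High against Mid without WT High 1 or WT Mid 2 or 3 or under a fit of the compared groups alone (adjusted p up to 0.126). Col23a1 lost its call in WT Mid against Neg without WT Mid 2 (adjusted p up to 0.0504). Col25a1 lost its call in WT Mid against Neg without WT Mid 2 or WT Neg 1 (adjusted p up to 0.0583). The size moved by over 1.5 times for Col25a1 in WT High against Neg (log2 1.38 with a pseudocount of 5) and Col25a1 in WT Mid against Neg (log2 1.20 with a pseudocount of 5).

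The second question was whether the helix deletion changed these genes within a gate. By limma, 0 of 32 members were called between ΔHx and WT in High, Mid or Neg, where 0.122%, 0.401% and 0.245% of all tested genes were. Averaged over the gates 0 were called too, against 0.843% of all genes. At an unadjusted p under 0.05 there were 1, 4 and 3 members in High, Mid and Neg and 3 in the average, of 32 each, where 7.86%, 7.96%, 4.17% and 9.58% of all genes were. The quasi-likelihood test of edgeR called 0 in each of these 4 comparisons. DESeq2 called 1 lower in Mid, Col6a2, and 1 higher in the average, Col17a1. With backgrounds this low, 0 of 32 is near what all genes showed. The lowest adjusted p was 0.607 in High (Col5a1), 0.216 in Mid (Col6a2) and 0.816 in Neg (Col17a1). For the most abundant members the estimates were small: Col2a1 changed by log2 0.15 (SE 0.20) in High, Col9a3 by -0.19 (SE 0.23) and Col18a1 by 0.03 (SE 0.27). For genes scarce in some gates the errors were wide, up to SE 0.97 for Col1a1, which was scarce in High and Mid but not in Neg.

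**Figure D4:**
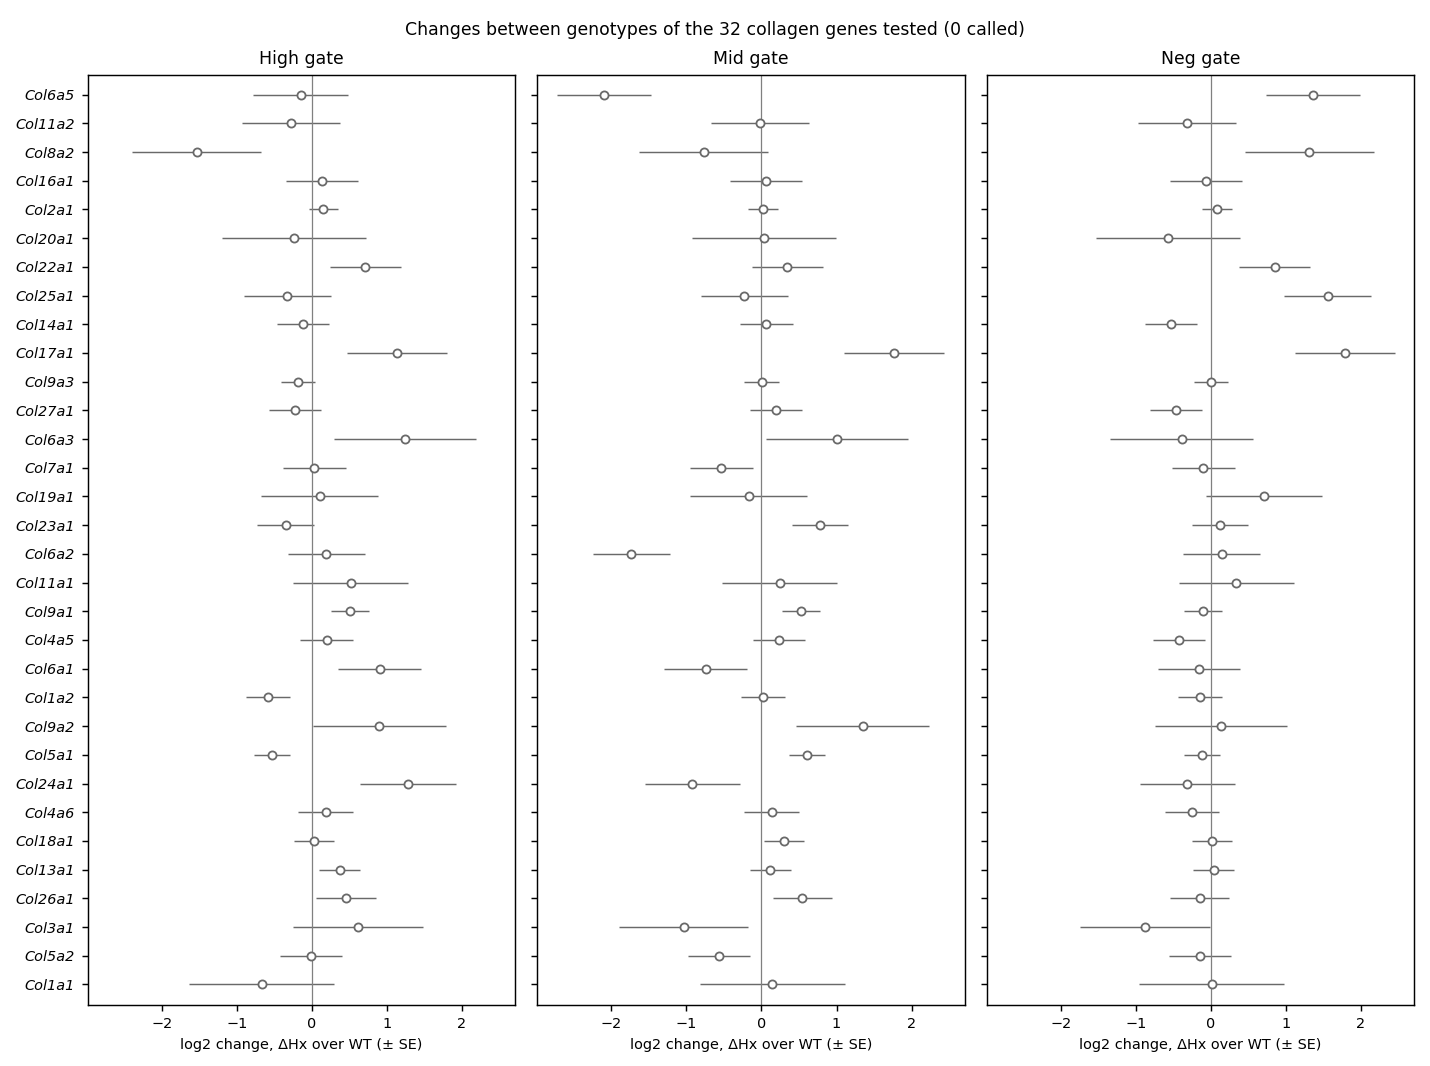
Log2 change of ΔHx over WT (x axis, with SE) of the 32 tested collagen genes (y axis, in the order of the gate plot) in the High, Mid and Neg gates; open circles mark that 0 were called. Col17a1 lies to the right in all 3 gates, and Col5a1 lies left of 0 in High and right of it in Mid.

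Col17a1, Col5a1, Col6a2 and Col6a5 are given here in every library and were picked for this once their values were known. Col17a1, the collagen of hemidesmosomes, which fasten epithelia to their basement membrane, had 21.0, 19.0 and 17.3 (High), 10.2, 3.90 and 39.9 (Mid) and 10.0, 12.1 and 11.4 (Neg) in ΔHx cells. The WT libraries had 8.39, 5.46 and 11.5 (High), 1.37, 2.87 and 5.23 (Mid) and 3.70, 1.01 and 3.62 (Neg). ΔHx lay above WT without overlap in High and in Neg, and by mean in Mid, where the lowest ΔHx library was within the WT range. Col17a1 passed the filter through the ΔHx libraries, since WT High 3 alone of the WT libraries reached 10 normalised reads. In WT it rested on 10 reads in Mid and 8 in Neg. Averaged over gates the change was log2 1.56, SE 0.38, adjusted p = 0.0632, which misses the threshold. Over all other settings and left-out libraries its adjusted p ran from 0.00907 (DESeq2) to 0.137. It fell below 0.05 by DESeq2, without ΔHx Mid 2 (0.0217) and without WT Mid 3 (0.0486), and edgeR gave 0.0554.

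Col5a1 was lower in ΔHx than in WT in all High libraries, at 146, 155 and 89.9 normalised reads in ΔHx against 204, 163 and 186 in WT. In Mid it was higher in all ΔHx libraries, at 252, 178 and 208 in ΔHx against 109.6, 166 and 143 in WT. The genotype effect in High minus that in Mid was log2 -1.14, SE 0.34, adjusted p = 0.522, so the opposite shifts did not pass the test. Col6a2 in Mid was 23.3, 16.6 and 35.4 in ΔHx against 249, 35.3 and 61.9 in WT (log2 -1.74, SE 0.51, adjusted p = 0.216). That change was log2 -0.94 (adjusted p = 0.640) without WT Mid 1, and -2.33 (adjusted p = 0.0286) without WT Mid 2, and by DESeq2 the adjusted p was 0.00859. Parietal endoderm markers were lower in ΔHx Mid beside it, with 9 of 11 called, and their part in the Col6a2 values was not tested. Col6a5 had 0.930, 1.95 and 0 in ΔHx Mid against 8.22, 12.4 and 2.62 in WT Mid. In the Neg gate it had 2.23, 2.80 and 2.06 in ΔHx against 1.23, 0 and 0 in WT. The difference of these shifts was log2 -3.46, SE 0.89, adjusted p = 0.536. In all, 0 of 32 members were called for a difference of genotype effects between any 2 gates, where 0%, 0.0068% and 0.0136% of all genes were. At an unadjusted p under 0.05 there were 2, 4 and 6 of the 32 members, where 3.15%, 4.32% and 6.13% of all genes were, and edgeR and DESeq2 called 0.

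Genes that modify and fold collagen chains were read against the same backgrounds. Of 14 tested genes for hydroxylation and glycosylation of the chains, 1 rose and 0 fell from Neg to Mid in ΔHx, with a median log2 change of 0.09. In WT 8 rose and 0 fell, with a median of 0.88, and the median over all genes was -0.00 in both genotypes. Of 11 genes of folding and export, 1 rose and 1 fell from Neg to Mid in ΔHx, and 8 rose and 0 fell in WT. Over all genes 17.9% rose in ΔHx and 17.4% in WT. For the difference of genotype effects between Mid and Neg, 0 of the 14 and 0 of the 11 were called by limma, against 0.0068% of all genes. At an unadjusted p under 0.05 there were 9 and 6, where 4.32% of all genes were. By edgeR 0 and 0 were called and by DESeq2 2 and 0. The 2 were P3h4 and P4ha2. Without WT Mid 1 limma called 1 of the 14 (Plod2), and without WT Mid 2 it called 3 of the 14 (P3h4, P4ha2 and Plod2) and 2 of the 11 (Sec24d and Serpinh1), each with a smaller change from Neg to Mid in ΔHx. The ΔHx rise among the 14 was lost without ΔHx Mid 1 or 2 or ΔHx Neg 1 or 3, and 5 of the 11 rose in WT without WT Neg 2. In ΔHx a fit of the compared groups alone gave 4 rises and 3 falls among the 14, and 3 rises and 1 fall among the 11. P4ha2, a prolyl hydroxylase subunit, averaged 121 ± 32.5 normalised reads in ΔHx Mid and 1954 ± 2272 in WT Mid, and Plod2, a lysyl hydroxylase, 610.3 ± 56.1 and 2343 ± 1997 (SD, n = 3 each). Both were called lower in ΔHx Mid (log2 -3.34, SE 0.54, adjusted p = 0.00695 and log2 -1.61, SE 0.33, adjusted p = 0.0296), the 2 of 14 that were. Serpinh1, the collagen chaperone, averaged 4396 ± 603 in ΔHx Mid and 15623 ± 13686 in WT Mid, a change that was not called (log2 -1.47, SE 0.35, adjusted p = 0.0823). P4ha2 lost its call without ΔHx Mid 2 or under a fit of the compared groups alone (adjusted p = 0.0565 and 0.336). Plod2 lost its call without ΔHx Mid 1, 2 or 3, under robust variances or under that fit (adjusted p up to 0.619). Serpinh1 was called by edgeR, by DESeq2 and without WT Mid 2 (adjusted p = 0.0228, 0.00592 and 0.00126). Without WT Mid 1 the changes of P4ha2, Plod2 and Serpinh1 were log2 -2.38 (adjusted p = 0.00272), -0.95 (adjusted p = 0.00269) and -0.79 (adjusted p = 0.0781). Parietal endoderm markers, 6 of 11 higher in Mid than in Neg in ΔHx and 11 of 11 in WT, moved beside these genes, and their part was not tested.

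From Neg to High, 21.5% of all genes rose and 21.1% fell in ΔHx, and 22.6% and 21.8% in WT, and the counts of the short lists that follow stand beside those shares. Among the 11 folding and export genes, 3 rose and 0 fell from Neg to High in ΔHx, and 4 rose and 1 fell in WT (medians 0.09 and 0.07). Fkbp14, a folding enzyme of the endoplasmic reticulum, rose in both, at 573 ± 86.6 in ΔHx High and 512 ± 88.6 in WT High, against 150.2 ± 8.40 in ΔHx Neg and 138 ± 23.3 in WT Neg (SD, n = 3 each). Its change was log2 1.91, SE 0.22, adjusted p = 1.06e-06 in ΔHx and log2 1.89, SE 0.22, adjusted p = 1.12e-06 in WT. Of 12 tested genes of procollagen processing and crosslinking, 1 rose and 5 fell from Neg to High in ΔHx, as did 1 and 5 in WT (medians -0.51 and -0.92). The rise was Tll1, a tolloid protease that trims procollagens, at 55.7 ± 13.8 in ΔHx High and 48.3 ± 9.33 in WT High, against 9.01 ± 3.93 in ΔHx Neg and 16.4 ± 12.5 in WT Neg. Pcolce2, an enhancer of procollagen trimming, fell, at 23.3 ± 9.65 and 20.2 ± 10.8 in ΔHx and WT High, against 214 ± 3.43 and 193 ± 16.2 in ΔHx and WT Neg (SD, n = 3 each). The changes of Tll1 and Pcolce2 in WT were log2 1.74 (adjusted p = 0.0138) and -3.32 (adjusted p = 4.59e-07). That of Tll1 ended without WT Neg 3 or under quantile normalisation (adjusted p up to 0.0937).

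Of 6 tested collagen-cleaving proteases, 2 rose and 3 fell from Neg to High in ΔHx, and 2 rose and 2 fell in WT (medians -0.44 and -0.08). The membrane protease Mmp15 averaged 1982 ± 327 normalised reads in ΔHx High and 1673 ± 259 in WT High, against 486 ± 47.4 in ΔHx Neg and 441 ± 68.7 in WT Neg (log2 2.02, SE 0.19, adjusted p = 6.69e-08 in ΔHx; SD, n = 3 each). The gelatinase Mmp2 ran the other way, at 323 ± 76.1 and 247 ± 30.7 in ΔHx and WT High, against 852 ± 80.7 and 907 ± 47.4 in ΔHx and WT Neg (log2 -1.42, SE 0.17, adjusted p = 2.25e-06 in ΔHx). Of 5 tested collagen receptors, 1 rose and 2 fell from Neg to High in ΔHx, and 1 rose and 3 fell in WT (medians -0.24 and -0.28). The rise was Ddr1, a receptor kinase that binds collagen, at 1206 ± 50.5 and 1199.6 ± 145 in ΔHx and WT High, against 622 ± 60.9 and 639 ± 62.8 in ΔHx and WT Neg, and Itga1, an integrin chain that binds collagen, fell, at 53.2 ± 32.5 and 43.7 ± 30.5 against 145 ± 30.5 and 149 ± 39.3 (SD, n = 3 each). In the 4 lists of folding, processing, cleavage and receptors, 0 genes were called between genotypes in any gate, and in the list of hydroxylation the 2 in Mid were the only ones.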

How the data were processed

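RNA of sorted cells was made into SMART-Seq2 libraries and sequenced from 1 end over 75 bases, per the labels' protocols. The authors deposited 1 table of normalised signal, gene counts divided by a size factor per library, for 24498 genes, and the submitters' processing notes name STAR 2.5.2a, HTSeq 0.6.1, DESeq, DESeq2 and mm10. Each deposited signal value was a whole multiple of 1 read's worth: 440964 of 440964 came out whole within 1e-06, and these recovered reads gave the depths. The 5 counter lines were left out. Log2 (value + 1) was fitted with limma 3.58.1 over all 6 groups, for the 14711 genes that reached 10 in 3 or more libraries, with Benjamini-Hochberg adjustment over all of them and calls at an adjusted p under 0.05. The sources used here do not give the strand setting of the counting. Fold changes on this scale understate those of scarce genes. Alternatives were edgeR 4.0.16 (quasi-likelihood) and DESeq2 1.42.0 on recovered reads, a pseudocount of 0.5 or 5, no filter or one at 50, other scalings, a replicate block, that block within each genotype (added after seeing the data), a fit of the compared groups alone, and leaving out each library. Positions and exon lengths come from GENCODE M21 (GRCm38) and promoters from RefSeq. An exon length merges the exons of all annotated transcripts of a gene, so levels and ratios per kb depend on that annotation. Scripts were tested on simulated data. The members, gene lists and tests were chosen with earlier results of these data known. Members with a group mean of at least 100 are given in every library, and any others so given were picked after their values were seen. Replicate numbers were not used as pairs. P-values set a change against the spread between these libraries within groups. Limma pooled that spread over all 6 groups and moderated it across genes, so the spread of the compared groups alone can differ.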

Additional observations from a re-analysis of the deposited data

How the results depend on the processing

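Of 83 calls of members between gates, 52 held under every alternative and every left-out library, and 0 changed direction. Quantile normalisation ended 10 calls, no filter 6, equal totals 4, edgeR 3, a fit of the compared groups alone 3, DESeq2 2, and a pseudocount of 0.5 or 5 1 each, while robust variances and a filter at 50 ended 0. By DESeq2, 1 member was lower in ΔHx Mid than in WT Mid (0 by limma), 1 was higher in ΔHx averaged over gates (0 by limma), and 7 were higher in WT Mid than in Neg (4 by limma). Quantile normalisation gave 5 higher members in ΔHx High against Neg (9 without it) and 1 in ΔHx Mid against Neg (4 without it). The cause was not tested.

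With each library left out in turn, higher and lower members numbered 7 to 9 and 7 to 8 in WT High against Neg, 2 to 5 and 4 to 7 in WT Mid against Neg, and 8 to 10 and 2 to 4 in WT High against Mid. In ΔHx they numbered 6 to 8 and 5 to 7 in High against Neg, 1 to 4 and 3 to 7 in Mid against Neg, and 8 to 9 and 4 to 5 in High against Mid. Between genotypes, lower members in Mid numbered 0 to 1 (1 without WT Mid 2), higher members in the average 0 to 1 (1 without ΔHx Mid 2 or WT Mid 3), and the other counts stayed at 0.

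No pairing by replicate number was used, since not every same-numbered pair correlated above 0.1 in its deviations (5 of 45 did). The 5 were among the 18 pairs within a genotype, and 27 of the 45 join different genotypes. Of the 18 libraries, 11 correlated best with one of their own number. With the replicate block, 1 of the 83 calls ended, Col9a2 in WT Mid against Neg, and no count moved by over 1.5 times. Within a genotype all 18 same-numbered pairs correlated positively (r of 0.0156 to 0.101 in ΔHx and 0.0485 to 0.291 in WT), while 7 of 36 other pairs did. A block within each genotype, chosen after seeing the data, can be fitted for gates and interactions only. It ended 0 of the 83 calls, gave 6 rises in WT Mid against Neg (4 without it), and left the interaction counts at 0. A fit of the compared groups alone was not made for the average over gates, which needs all 6 groups, and the filter at 50 gave no value for genes it removed. Members under about 10 normalised reads rest on few reads, and depth limits what can be said of them.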
